A study of Homo sapiens with 4 samples.

Results

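The miR-378 family was followed by small RNA sequencing in HFE-145, a line of immortalised epithelial cells from the human stomach. The deposited table of mature miRNAs lists both arms of the miR-378a hairpin, hsa-miR-378a-5p and hsa-miR-378a-3p, and the near-identical paralogs hsa-miR-378b to hsa-miR-378i, which together make 10 of its 2039 miRNAs (the prefix hsa- is left out where values are given). Members were chosen by name and with no threshold, but the raw counts of these same 4 libraries were known when the family was selected, so the values and adjusted p-values below are a description of these libraries and not independent evidence. Cells of one group overexpressed YAP5SA, a form of the Hippo pathway effector YAP whose inhibitory phosphorylation sites are mutated so that it stays active, and cells of the other carried the vector, with 2 samples in each group. The labels give no promoter, clone or time for the construct and do not say whether the duplicates came from separate cultures, so the spread behind each p-value may be technical.

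miR-378a is made from a hairpin in an intron of PPARGC1B, the gene of the transcriptional coactivator PGC-1 beta. Both arms are known from mitochondrial and lipid metabolism in mice, where carnitine O-acetyltransferase and the Mediator subunit MED13 are among their known targets, and the 3p arm is also known from muscle differentiation. A miRNA finds its targets mainly through its seed, bases 2 to 8 from the 5′ end, so the arms have separate target sets while most paralogs share the seed of the 3p arm.

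The hairpin shows how the arms relate. It is the RefSeq sequence of MIR378A (GRCh38.p14, chromosome 5 from 149732825 to 149732890, plus strand), 5′ to 3′, with the 5p arm and then the 3p arm, as the deposited table spells them, in capitals.
MIR378A hairpin: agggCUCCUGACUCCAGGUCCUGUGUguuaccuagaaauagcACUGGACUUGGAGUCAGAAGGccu
The arms are separated by 16 bases of loop, and their seeds differ. The table lists miR-378a-3p 1 base shorter at its 3′ end than RefSeq does.

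The mature sequences below, from the deposited table, show where the paralogs depart from miR-378a-3p. Capitals mark the seed. The sequence of miR-378d is not shown.
hsa-miR-378a-5p: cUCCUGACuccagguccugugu
hsa-miR-378a-3p: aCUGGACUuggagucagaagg
hsa-miR-378b: aCUGGACUuggaggcagaa
hsa-miR-378c: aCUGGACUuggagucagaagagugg
hsa-miR-378e: aCUGGACUuggagucagga
hsa-miR-378f: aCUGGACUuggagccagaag
hsa-miR-378g: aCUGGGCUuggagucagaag
hsa-miR-378h: aCUGGACUuggugucagaugg
hsa-miR-378i: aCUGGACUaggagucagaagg

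Of the 8 members of 3p type shown, 7 share the seed of miR-378a-3p and miR-378g does not. Counting positions from 1 at the 5′ end, with the base of miR-378a-3p first, the differences are U14G in miR-378b, G21A in miR-378c, A18G in miR-378e, U14C in miR-378f, A6G in miR-378g, A12U and A19U in miR-378h, and U9A in miR-378i. miR-378c therefore matches miR-378a-3p over its first 20 bases and miR-378e over its first 17, so shorter reads of these cannot be told apart, and the sources used here do not say how the counting tool split such reads. miR-378b and miR-378f part from miR-378a-3p after 13 bases, miR-378h after 11, miR-378i after 8 and miR-378g after 5. miR-378d is left out of this comparison, so how far its reads can be told apart is not stated here.

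The paralogs are scattered over the genome. On GRCh38, MIR378F lies on chromosome 1 from 23929070 to 23929147 and MIR378C on chromosome 10 from 130962588 to 130962668, both outside other genes annotated by GENCODE. MIR378E lies in an intron of DOCK2 on chromosome 5 from 170028488 to 170028566, on the same strand. MIR378B and MIR378H lie opposite introns of ATP2B2, on chromosome 3 from 10330229 to 10330285, and of FAXDC2, on chromosome 5 from 154829458 to 154829540. MIR378G lies in an intron of the pseudogene SLC44A3-AS1 on chromosome 1 from 94745860 to 94745900. MIR378I overlaps an exon of TNFRSF13C on chromosome 22 from 41923222 to 41923297, on the same strand.

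Libraries held 136903 and 191954 counts in YAP5SA replicates 1 and 2, and 217235 and 195283 in vector replicates 1 and 2. At this depth every family member was a minor miRNA, with at most 51 counts in any library, and miR-378a-3p ranked 168th of 602 tested miRNAs by mean level. The YAP5SA libraries carried more of their reads in rare miRNAs: those with a mean count below 20 took 10.5% and 5.56% of counts in YAP5SA replicates 1 and 2, against 3.41% and 3.15% in vector replicates 1 and 2. Of 7 epithelial marker miRNAs (the miR-200 family, miR-203a and miR-205-5p), all 7 had counts in each of the 4 libraries. Their summed level was lower in YAP5SA cells, at 12076 and 15114 CPM in replicates 1 and 2, against 29164 and 25669 CPM in vector replicates 1 and 2. Of the 7, 1 was higher in both YAP5SA libraries than in both vector libraries and 6 were lower. Over all miRNAs in the table these shares were 34.3% and 11.7%. The higher one was miR-205-5p, at 34.1 and 73.3 CPM in YAP5SA cells and 26.4 and 19.7 CPM in vector cells. Levels below are in CPM, counts scaled to library size and by TMM, a normalization that aligns the bulk of miRNAs between libraries. Each read is taken to span a whole mature miRNA, so no length correction was made.

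YAP5SA and vector cells were compared to ask which miRNAs of the family differ when YAP5SA is overexpressed. The 5p arm of miR-378a and the paralog miR-378f were higher in YAP5SA cells, with log2 fold changes of 3.23 and 2.80, while miR-378a-3p, miR-378c and miR-378d did not pass the test. Across all 602 miRNAs tested by edgeR's quasi-likelihood test with Benjamini-Hochberg adjustment, 11.8% were called higher and 3.49% lower. The family had 5 tested members, of which 2 were called higher, 0 lower and 3 not called. The split was the same at an unadjusted p under 0.05, which 21.8% of all tested miRNAs passed as higher and 11.5% as lower, and by DESeq2, which called 5.98% higher and 2.99% lower. limma-voom called 0 members, where it called 3.49% of all tested miRNAs higher and 1.66% lower. Of the 6 tested epithelial markers, 0 were called higher and 4 lower by edgeR (0 and 6 at an unadjusted p under 0.05, 0 and 3 by DESeq2, 0 and 1 by limma-voom). The part of this fall in the family's values was not tested. With a low-count filter that asks for about 10 counts in 2 libraries, miR-378a-5p and miR-378f entered the test through their YAP5SA libraries alone, so the count of 2 among 5 is not evidence about the family. Over all 10 members, 2 had YAP5SA and vector values that did not overlap with YAP5SA higher and 0 with YAP5SA lower, where 34.3% and 11.7% of all miRNAs in the table did so. The median log2 fold change was 0.25 over the 5 tested members and 0.11 over all 602 tested miRNAs.

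**Figure D1:**
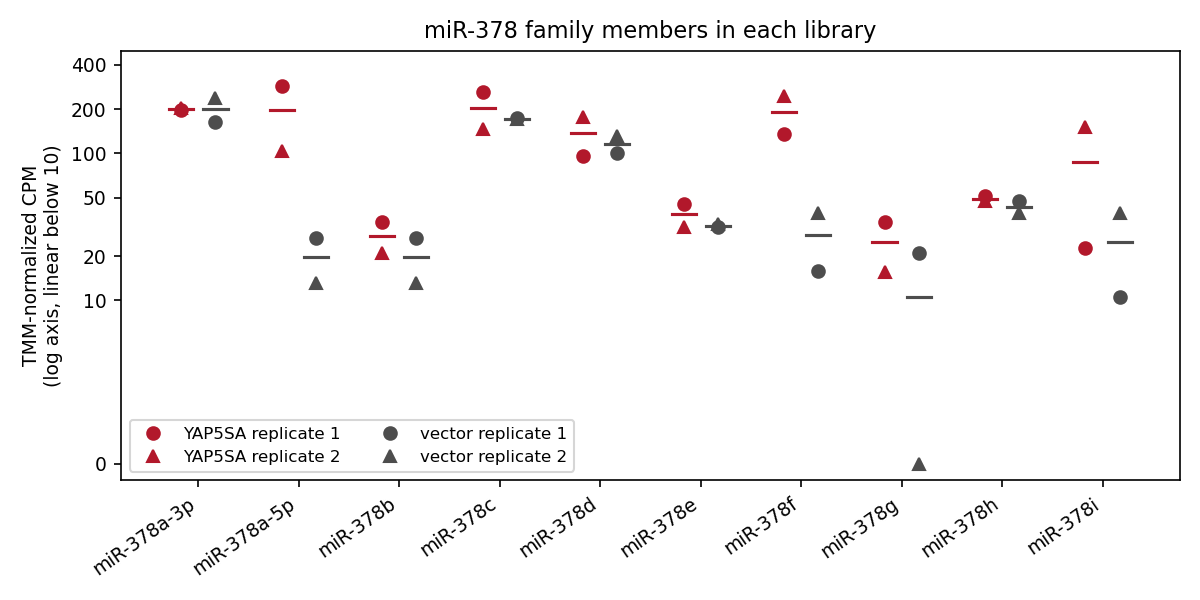
TMM-normalized CPM (vertical axis, logarithmic above 10) of the 10 members in each library, YAP5SA left of vector, with replicate 1 as circles, replicate 2 as triangles and a line at the mean of the 2 samples. miR-378a-5p and miR-378f stand apart between the groups, while miR-378a-3p lies between 164 and 237 CPM in the 4 libraries.

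miR-378a-3p, the arm with the family seed, had 35 and 39 counts in YAP5SA replicates 1 and 2 and 31 and 36 counts in vector replicates 1 and 2. In CPM these were 199 and 204 in YAP5SA cells, and 164 and 237 in vector cells. The YAP5SA values lay inside the range of the vector values. The fold change on the log2 scale was 0.014 ± 0.42 (SE; edgeR, adjusted p = 0.98). Its sign turned with the scaling, from -0.044 with DESeq2's size factors to 0.75 with scaling from abundant miRNAs, a setting chosen after seeing the data, and it was not called in either.

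miR-378a-5p, the arm opposite it in the same hairpin, had 51 and 20 counts in YAP5SA replicates 1 and 2, and 5 and 2 counts in vector replicates 1 and 2. In CPM these were 290 and 105 in YAP5SA cells, and 26.4 and 13.1 in vector cells. Both YAP5SA libraries were above both vector libraries, and the YAP5SA libraries differed widely between themselves. The arm averaged 197 ± 131 CPM in YAP5SA cells and 19.8 ± 9.38 CPM in vector cells (SD, n = 2 each). edgeR gave a log2 fold change of 3.23 ± 0.75 (SE) with an adjusted p of 0.030, which placed it 34th from the top of the 602. The call was lost without vector replicate 1 (adjusted p = 0.171, edgeR), vector replicate 2 (0.26) or YAP5SA replicate 1 (0.076), with a filter at a mean of 10 CPM (0.065), with limma-voom (0.074) and on the authors' log2 values with limma (0.41), while the log2 fold change stayed between 2.23 and 4.03 in all 14 alternatives.

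Other miRNAs were high in YAP5SA replicate 1 too. Muscle markers, of which all 7 were in the table and 1 was tested with no call, summed to 568 and 152 CPM in YAP5SA replicates 1 and 2, against 211 and 217 CPM in the vector replicates. Of the 7, 1 was higher in both YAP5SA libraries than in both vector libraries, 0 were lower and 6 overlapped, where 34.3% and 11.7% of all miRNAs in the table did not overlap. The marker without overlap was miR-133a, at 56.8 and 31.4 CPM in YAP5SA cells and 21.1 and 19.7 CPM in vector cells. miR-1 and miR-206 were at 0 counts in YAP5SA replicate 2, miR-206 also in both vector libraries, and the other 5 had counts in each of the 4 libraries. YAP5SA replicate 1 was thus highest for miR-378a-5p, for the muscle sum and for the share of counts in rare miRNAs. It was also highest for the sums of blood markers (596 CPM) and endothelial markers (170.4 CPM), so this was not particular to muscle markers. The epithelial and neural sums and the liver marker were lowest there. The part of these in the rise of miR-378a-5p was not tested.

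The ratio of the arms within a library does not depend on scaling. Of the counts of both arms, miR-378a-5p took 51 of 86 in YAP5SA replicate 1, or 59.3% (exact binomial 95% interval 48.2 to 69.8), and 20 of 59 in YAP5SA replicate 2, or 33.9% (22.1 to 47.4). It took 5 of 36 in vector replicate 1, or 13.9% (4.67 to 29.5), and 2 of 38 in vector replicate 2, or 5.26% (0.644 to 17.7). The 5p share was higher in both YAP5SA libraries than in both vector libraries, and the intervals of YAP5SA replicate 2 and vector replicate 1 overlapped. These intervals cover counting error only and leave out variation between cultures and libraries. They treat each read as independent, so they would be too narrow where copies of 1 molecule were counted separately.

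The log2 ratio of 3p to 5p counts averaged 0.21 ± 1.07 in YAP5SA cells and 3.40 ± 1.09 in vector cells (SD, n = 2 each), a difference of -3.19. The two-sided exact permutation p was 0.333, the smallest that 2 samples against 2 can give. With miR-378a-3p and all its paralogs counted as the 3p arm, the difference was -2.65. Left-out libraries gave -2.42 to -3.96.

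**Figure D2:**
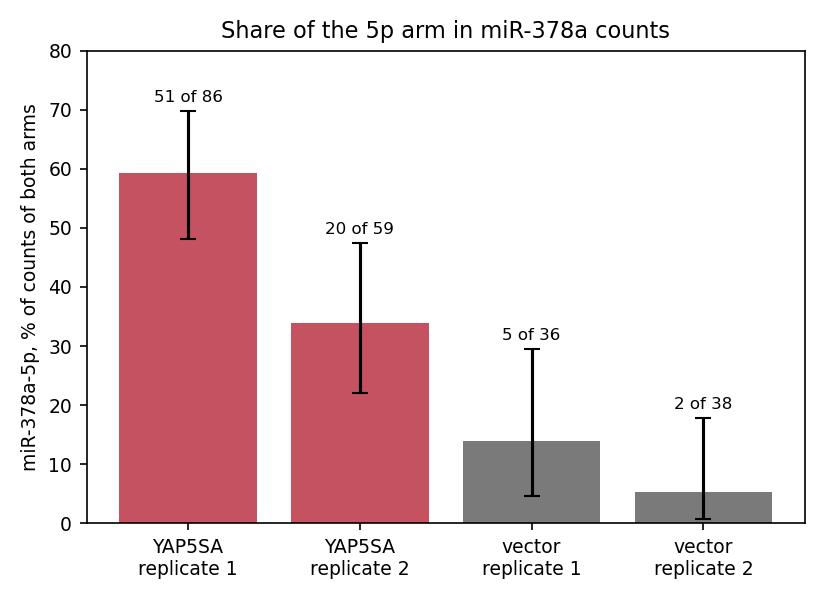
Share of miR-378a-5p in the counts of both miR-378a arms (vertical axis, percent) in each library, with exact binomial 95% intervals as error bars and the counts above them. The YAP5SA libraries stand at 59.3% and 33.9%, above the vector libraries at 13.9% and 5.26%.

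The shift between arms was set beside that of other hairpins. Both arms passed the filter for 84 hairpins named with a 5p and a 3p arm, and the log2 fold change of the 5p arm minus that of the 3p arm was 3.22 for miR-378a, the 5th from the top. Over the other 83 hairpins it ranged from -3.17 to 6.23 with a median of 0.03, and the median size of the difference was 0.52. The 5p share was higher in both YAP5SA libraries than in both vector libraries for 24 of these 83 hairpins, and lower for 15. A hairpin entered this comparison also where 1 arm had passed the filter through YAP5SA libraries alone, as miR-378a-5p did.

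**Figure D3:**
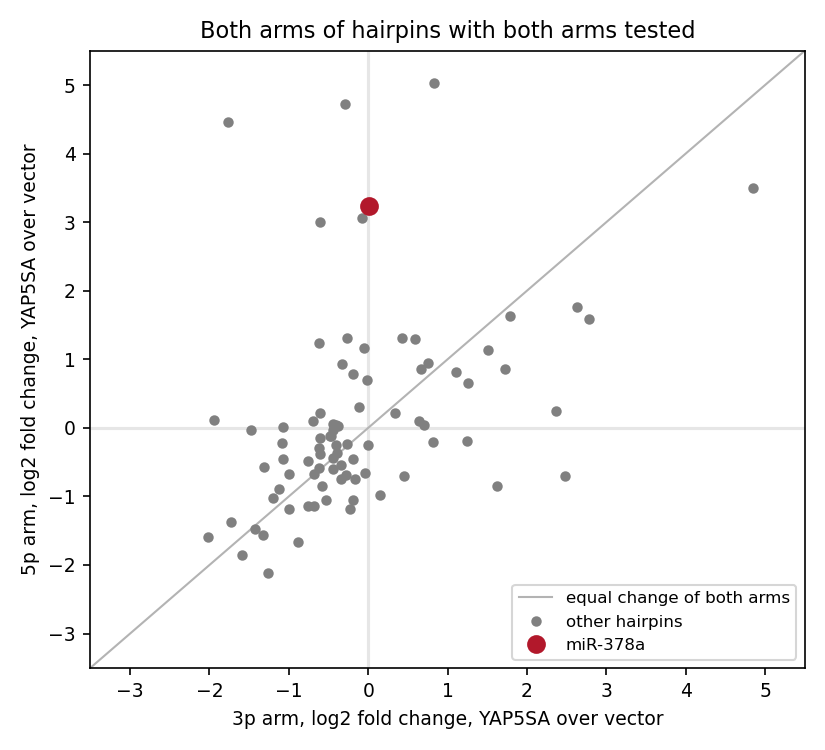
Log2 fold change, YAP5SA over vector, of the 3p arm (horizontal axis) and the 5p arm (vertical axis) for the 84 hairpins with both arms tested. Hairpins on the line changed alike in both arms, and miR-378a lies 3.22 above it.

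Among the paralogs, miR-378f had 24 and 47 counts in YAP5SA replicates 1 and 2, and 3 and 6 counts in vector replicates 1 and 2. In CPM these were 136 and 246 in YAP5SA cells, and 15.9 and 39.4 in vector cells. The groups did not overlap, and here YAP5SA replicate 2 was the higher, the reverse of miR-378a-5p. edgeR gave a log2 fold change of 2.80 ± 0.65 (SE) with an adjusted p of 0.030, 48th from the top of the 602. The call was lost without vector replicate 1 (adjusted p = 0.48, edgeR) or vector replicate 2 (0.13), with no low-count filter (0.059) or one at a mean of 10 CPM (0.11), with limma-voom (0.062) and on the authors' log2 values with limma (0.41), with the log2 fold change between 1.77 and 3.49 in all 14 alternatives.

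miR-378f carries the seed of miR-378a-3p unchanged and differs from it at U14C, the position where miR-378b has U14G. miR-378b did not share its pattern of counts: it had 6 and 4 in YAP5SA replicates 1 and 2, and 5 and 2 in vector replicates 1 and 2, too few to test. As a share of the counts of miR-378a-3p and all its paralogs, miR-378f took 15.5% in YAP5SA replicate 1 (exact binomial 95% interval 10.2 to 22.2) and 23.6% in YAP5SA replicate 2 (17.9 to 30.1). The share was 2.68% in vector replicate 1 (0.556 to 7.63) and 5.61% in vector replicate 2 (2.09 to 11.8). This share does not depend on scaling either, and both YAP5SA values were above both vector values. The intervals of YAP5SA replicate 1 and vector replicate 2 overlapped, and they too cover counting error only.

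miR-378c, which equals miR-378a-3p over its first 20 bases and extends beyond it by 4, had 46 and 28 counts in YAP5SA replicates 1 and 2 and 33 and 26 counts in vector replicates 1 and 2. The YAP5SA values of 261 and 147 CPM spanned the vector values of 174 and 171 CPM. edgeR gave a log2 fold change of 0.24 ± 0.46 (SE) with an adjusted p of 0.78. miR-378d had 17 and 34 counts in YAP5SA replicates 1 and 2 and 19 and 20 counts in vector replicates 1 and 2, or 96.6 and 178 CPM in YAP5SA cells and 100.4 and 131 CPM in vector cells. The groups overlapped and the log2 fold change of 0.25 ± 0.51 (SE) had an adjusted p of 0.78 by edgeR. Both signs turned with no low-count filter, to -0.25 for miR-378c and -0.13 for miR-378d.

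The 5 members that were not tested had between 0 and 29 counts per library. miR-378i had 4 and 29 counts in YAP5SA replicates 1 and 2, and 2 and 6 in vector replicates 1 and 2. Its high value stood in YAP5SA replicate 2 alone, at 152 CPM against 22.7 CPM in YAP5SA replicate 1, and the groups overlapped. miR-378h had 9 and 9 counts in YAP5SA replicates 1 and 2, and 9 and 6 in vector replicates 1 and 2. miR-378e had 8 and 6 counts in YAP5SA replicates 1 and 2, and 6 and 5 in vector replicates 1 and 2. miR-378g, the paralog with another seed, had 6 and 3 counts in YAP5SA replicates 1 and 2, and 4 and 0 in vector replicates 1 and 2. All 5 overlapped between the groups in CPM. In a fit of 2034 miRNAs with no low-count filter, where 1.67% were called higher and 0.688% lower, these 5 had log2 fold changes of -0.28 to 1.53 and adjusted p of 0.38 to 0.99 by edgeR. With YAP5SA replicate 1 left out, miR-378i was called higher by 2.55 on the log2 scale (edgeR), where 8.98% of 679 miRNAs were called higher. miR-378i passed the filter there through YAP5SA replicate 2 alone, the only YAP5SA library left. The call therefore rests on that library and is not evidence of a rise in YAP5SA cells. Without vector replicate 1 or 2, miR-378i was tested and not called, with log2 fold changes of 0.92 and 2.71 (edgeR). In the fit with no low-count filter miR-378a-5p was called higher by 2.71 on the log2 scale (edgeR, adjusted p = 0.031).

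The order of levels differed between the groups. In YAP5SA cells miR-378c averaged 204 ± 81.1 CPM, miR-378a-3p 201 ± 3.75 CPM, miR-378a-5p 197 ± 131 CPM and miR-378f 191 ± 77.5 CPM (SD, n = 2), and these did not differ beyond their spread. miR-378d followed at 137 ± 57.5 CPM and miR-378i at 87.2 ± 91.3 CPM (SD, n = 2), each overlapping its neighbours above. In vector cells miR-378a-3p led at 200.2 ± 51.5 CPM and overlapped with miR-378c at 173 ± 2.44 CPM (SD, n = 2). miR-378d came next at 116 ± 22.0 CPM in vector cells, below both vector values of miR-378c, and the other 7 members averaged between 10.6 and 43.5 CPM there. miR-378a-5p and miR-378f were thus among the 4 members near 200 CPM in YAP5SA cells and among the 7 low members in vector cells.

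Since near-identical paralogs may exchange reads, miR-378a-3p and its 8 paralogs were also summed. The 9 miRNAs held 155 and 199 counts in YAP5SA replicates 1 and 2, and 112 and 107 counts in vector replicates 1 and 2. In CPM the sum was 880.4 and 1041 in YAP5SA cells, and 592 and 703 in vector cells. The mean was 961 ± 114 CPM in YAP5SA cells and 648 ± 78.9 CPM in vector cells (SD, n = 2 each), a ratio of 1.48 that carries no test because the members were chosen with results known. With library totals in place of TMM the ratio was 2.04. Without miR-378a-3p the ratio of the summed CPM was 1.70. Without miR-378f the ratio of the summed CPM was 1.24, and without miR-378f and miR-378i it was 1.15, at 683 ± 54.9 CPM in YAP5SA cells and 595 ± 41.8 CPM in vector cells (SD, n = 2 each). miR-378f and miR-378i had the highest ratios of mean CPM among the 9, at 6.91 and 3.49. A lower ratio without them therefore follows from the choice. miR-378a-3p, miR-378c and miR-378e, which by the sequences above share at least their first 17 bases, took 57.4% and 36.7% of the summed counts in YAP5SA replicates 1 and 2, against 62.5% and 62.6% in vector replicates 1 and 2.

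**Figure D4:**
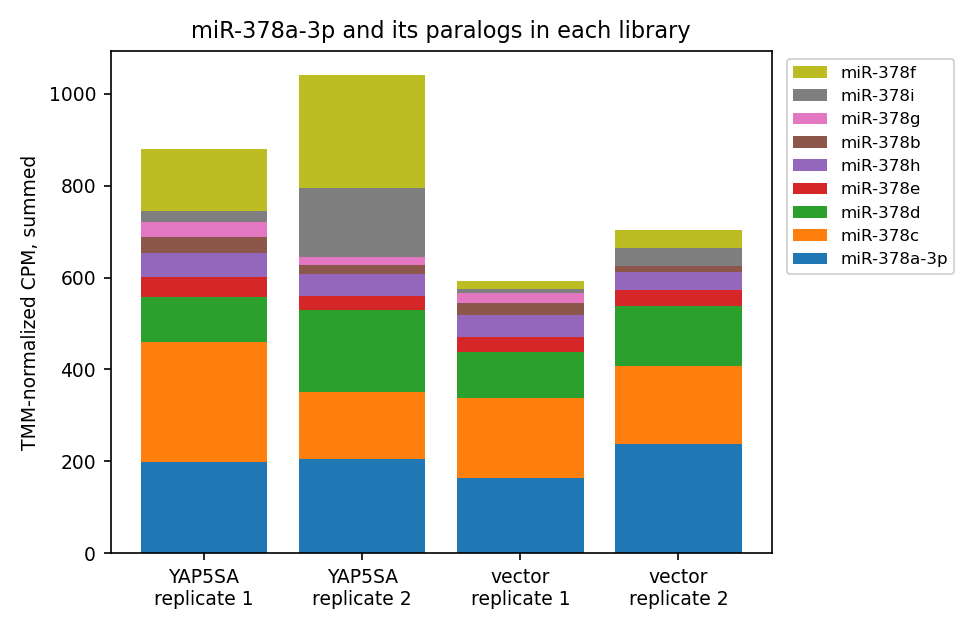
Summed TMM-normalized CPM (vertical axis) of miR-378a-3p and its 8 paralogs in each library, with a segment for each miRNA. The sums are 880.4 and 1041 CPM in YAP5SA cells against 592 and 703 CPM in vector cells, and the top segment is miR-378f.

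In the authors' deposited table, the fold change of YAP5SA over vector was 5.98 for miR-378a-5p (p = 0.136), 4.45 for miR-378f (p = 0.20) and 1.02 for miR-378a-3p (p = 0.33). Of the 10 members, miR-378e had p = 0.048 in the authors' deposited table with a fold change of 0.694, where 9.32% of all its miRNAs had a p under 0.05. The authors' deposited table gave folds under 1 for miR-378b, miR-378d and miR-378h as well, at 0.771, 0.973 and 0.689. In the CPM used here the ratios of group means went the other way. They were 1.39 for miR-378b, 1.18 for miR-378d, 1.19 for miR-378e and 1.13 for miR-378h. The direction of these small differences thus depends on the normalization. The sources used here do not name the test behind these p-values.

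The table holds 1 other miRNA with the seed of miR-378a-3p, miR-422a, which differs from it at G10A and A12G. It had 6 and 8 counts in YAP5SA replicates 1 and 2, and 1 and 5 in vector replicates 1 and 2, and was not tested. In CPM it was at 34.1 and 41.9 in YAP5SA cells and at 5.28 and 32.9 in vector cells. The groups did not overlap, as for 34.3% of all miRNAs in the table with YAP5SA higher. YAP5SA replicate 1 and vector replicate 2 were nearly equal, at 6 and 5 counts. No miRNA outside the family shared the seed of miR-378a-5p.

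The 3 tested miRNAs most like miR-378a-3p over the 4 libraries were miR-106b-5p, miR-221-5p and miR-937-3p, out of 203 with a mean CPM within 2-fold of it. Their Euclidean distances to it on centred log2 CPM were 0.10, 0.19 and 0.24. All 3 had log2 fold changes between -0.12 and 0.13 and were not called. They were picked for their likeness to miR-378a-3p in these same libraries, so small fold changes follow from the choice.

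A list of 22 miRNAs known, with miR-378a, from muscle, adipose tissue and lipid metabolism was read beside the family. It had 11 tested members, of which 0 were called higher and 1 lower (0 and 5 at an unadjusted p under 0.05, 0 and 2 by DESeq2, 0 and 0 by limma-voom). Over all 602 the shares called lower were 3.49%, 11.5% at an unadjusted p, 2.99% by DESeq2 and 1.66% by limma-voom. The 11 tested members had a median log2 fold change of -0.59, against 0.11 over all 602. Of all 22, 4 were higher in both YAP5SA libraries than in both vector libraries, 8 were lower and 10 overlapped. Over all miRNAs in the table, 34.3% were higher and 11.7% lower without overlap, so the list did not move in 1 direction only. miR-27b-3p, which restrains adipocyte differentiation, fell by 1.20 on the log2 scale (adjusted p = 0.034, edgeR). miR-27a-3p, its paralog with the same role, stood at -1.32 on that scale and did not pass (edgeR, adjusted p = 0.054). miR-486-5p, enriched in muscle and red blood cells, stood at -0.85 and did not pass either (edgeR, adjusted p = 0.072).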

How the data were processed

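Small RNA libraries were made from total RNA with an NEB kit, per the labels' protocols, and groups and replicate numbers came from sample titles. The authors deposited raw read counts per mature miRNA, log2 normalized read counts, a fold change and a p-value, per the file headers. The sources used here give neither the normalization, aligner, counting tool and strand use nor the test behind that p-value. FastQC and hg19 are named, per the submitters' processing notes. The table held 2039 miRNAs, and 3 empty lines were left out.

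Counts were tested with edgeR 4.0.16 (R 4.3.3): quasi-likelihood test, TMM scaling, default low-count filter, group as the model's term, Benjamini-Hochberg adjustment over all 602 miRNAs tested, threshold 0.05. The filter left out 1437 miRNAs, and tested ones held 96.9% of counts. SEs are the size of the log2 fold change over the square root of F. The common dispersion was 0.106. The steps were tested on simulated data. Alternatives used limma 3.58.1 (voom, or the authors' log2 values) and DESeq2 1.42.0, with the other settings given in the closing section. Likeness used log2 of CPM plus 2, and 0.5 was added to counts for the arm ratios of all hairpins.

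Members and lists were chosen with earlier results of these data known. The text names all 10 members, other miRNAs with either seed of miR-378a, the 3 nearest profiles, and list members past the threshold or among the 3 most abundant. Hairpins and positions are RefSeq's (GRCh38.p14), matched by symbol for the 9 members shown, with overlapping genes from GENCODE on GRCh38. Intervals are exact binomial (Clopper-Pearson, SciPy 1.17.1). Marker lists other than the epithelial and muscle ones are given in the closing section.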

Additional observations from a re-analysis of the deposited data

How the results depend on the processing

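In place of 92 called miRNAs (71 higher, 21 lower), there were 159 with library totals, 48 with no filter, 20 with a filter at a mean of 10 CPM, 54 with DESeq2, 31 with limma-voom, 167 with scaling from abundant miRNAs and 0 with limma on the authors' log2 values (228 with an unadjusted p under 0.05); the last 2 settings were chosen after seeing the data. The higher calls made up 77.2% of the 92, 92.5% under library totals and 97.6% under the scaling from abundant miRNAs; the median over all miRNAs was then 0.61 and 0.83 on the log2 scale, in place of 0.11. Leaving out a library gave 1 to 283 calls: 1 and 13 without vector replicates 1 and 2, 118 and 283 without YAP5SA replicates 1 and 2. These fits also tested other numbers of miRNAs, 679 to 1042.

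For miR-378a-5p the log2 fold change was 2.72 with the 10 CPM filter, 2.97 with limma-voom and 2.44 on the authors' log2 values, none past the threshold, and 2.23 to 3.46 with a library left out. For miR-378f it was 2.43 with no filter, 2.44 with the 10 CPM filter, 2.79 with limma-voom and 2.14 on the authors' values, none past the threshold, and 1.77 to 3.22 with a library left out. The cause of these losses was not tested. miR-378a-5p and miR-378f kept their direction and their call in 8 of 14 alternatives each. Members that were never called turned sign: miR-378a-3p to -0.044 with DESeq2's size factors, -0.045 with DESeq2, -0.41 with no filter and -0.40 with the 10 CPM filter (left-out libraries -0.56 to -0.058); miR-378c to -0.25 and -0.24 with these filters (-0.33 to 0.034); miR-378d to -0.13 and -0.12, and to -0.16 on the authors' values (-0.81 to 0.53). The log2 ratio of the summed 3p-type members was 0.57, 1.03 with library totals, 0.0089 for miR-378a-3p alone and 0.44 to 0.70 with a library left out. The log2 ratio of arms kept its direction, at -3.96 to -2.42.

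With the replicate number as a block, edgeR called 136 miRNAs and gave log2 fold changes of 3.24 for miR-378a-5p (adjusted p = 0.00041) and 2.80 for miR-378f (adjusted p = 0.0014); 3 tested members stayed uncalled. Replicates 1 of both groups deviated from their group means with r = 0.02 over 602 miRNAs, so the numbers give no sign of pairing.

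Vector counts of 7 for miR-378a-5p and 9 for miR-378f limit the precision of their folds.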

Other observations

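miR-378j lies outside the members and was named after its values were seen. It had 19 and 7 counts in YAP5SA replicates 1 and 2, and 3 and 0 in vector replicates 1 and 2, and was not tested.

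Marker lists of other cell types were summed in CPM. Blood markers stood at 596 and 288 CPM in YAP5SA replicates 1 and 2, against 417 and 506 CPM in vector replicates 1 and 2, with 0 calls among 1 tested by edgeR. Endothelial markers stood at 170.4 and 62.8 CPM in the YAP5SA replicates, against 26.4 and 98.6 CPM in the vector replicates, with 0 calls among 1 tested. Neural markers stood at 1164 and 1172 CPM in the YAP5SA replicates, against 3878 and 2590 CPM in the vector replicates. Of the 2 tested, miR-128 was called lower by edgeR. The other, miR-9-5p, went the other way, at 73.8 and 89.0 CPM in the YAP5SA replicates against 26.4 and 13.1 CPM in the vector replicates. Its log2 fold change of 1.96 did not pass (edgeR, adjusted p = 0.052). At an unadjusted p under 0.05, 1 neural marker was higher and 1 lower. DESeq2 and limma-voom each called 0 higher and 1 lower. The liver marker miR-122-5p had 5 and 6 counts in the YAP5SA replicates, and 6 and 5 in the vector replicates. The blood, endothelial and muscle markers tested also had 0 calls at an unadjusted p under 0.05, by DESeq2 and by limma-voom.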
